A study of Mus musculus with 8 samples.

Results

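The Hox genes examined here were all rows of the count table whose symbol is Hoxa, Hoxb, Hoxc or Hoxd followed by a number, which gave 39 of 55421 genes. They comprised 11 genes of cluster A, 10 of cluster B, 9 of cluster C and 9 of cluster D. The libraries were made from primary mouse spermatogonia kept in long-term SSC culture on a layer of feeder cells, and transcripts were measured by poly(A) RNA-seq. Germ cells for such cultures were taken from testes of pups in the first week after birth, and the feeder cells were irradiated embryonic fibroblasts of outbred CF1 mice. All cultures had the C57BL/6XDBA/2 background and were either STRA8KO or SPO11KO, from mice deficient for Stra8, a retinoic acid target needed to start meiosis, or for Spo11, the enzyme that cuts DNA in meiosis. Cultures were given vehicle (Veh) or NRRA (nutrient restriction combined with retinoic acid), and each of the 4 groups held 2 libraries. Feeder cells were lysed with the germ cells, so each value is a sum over all cell types in the culture. In such bulk libraries, fewer cells of a type and less RNA per cell cannot be told apart.

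Hox genes encode homeodomain transcription factors that set position along the body axis. Within a cluster the genes lie in the order in which they are expressed from head to tail, with low paralog numbers at the end that is active earlier and further towards the head. Retinoic acid bound to its receptors switches on Hox genes of the low-number end through response elements, which are direct repeats of a hexamer, and HOX proteins bind DNA together with PBX and MEIS cofactors. Fibroblasts keep the Hox code of the body region they come from, and this holds for embryonic fibroblasts too.

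In GENCODE M21 (GRCm38, the build that the submitters' processing notes name as mm10), cluster A lies at chr6:52155590-52260880, cluster B at chr11:96194316-96368256, cluster C at chr15:102921103-103036852 and cluster D at chr2:74668310-74765142. Genes of cluster A are on the minus strand and those of the other clusters on the plus strand. Promoter windows of 300 bases (250 before and 50 after the transcription start) were found in RefSeq (GRCm38.p6) for 22 of the 39 genes, as 24 windows. They were searched on both strands for direct repeats of any pairing of the half-sites AGGTCA (the usual one), AGTTCA (found in both elements shown here), GGGTCA (a further variant) and GGTTCA (the other hexamer of the Rarb element). Repeats with 5 bases between half-sites were found in none of the Hox windows and in 0.0974% of all 32851 windows. Repeats with 2 bases between them were also found in none of the Hox windows and in 0.268% of all windows. The elements near the starts of Rarb and Cyp26a1, a receptor gene and a retinoic acid-degrading enzyme gene that rose under NRRA, show the form that was searched for. That of Rarb lies at chr14:16575513-16575529 and that of Cyp26a1 at chr19:37697776-37697792, both read on the minus strand, with half-sites in capitals:
Rarb: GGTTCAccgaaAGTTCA
Cyp26a1: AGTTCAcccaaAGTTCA

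The motif TGATNNAT, of the kind bound by HOX and PBX together, was found on either strand in the windows of Hoxa2, Hoxb1, Hoxb8 and Hoxd11, and in 8.85% of all windows. TATAAA was found in those of Hoxa10, Hoxb8, Hoxd4 and Hoxd13, and in 13.6% of all windows. The promoters of Hoxb1, which had the largest difference in NRRA effect between genotypes, and of Hoxb8, the Hox gene with the highest summed level, are printed with TGATNNAT in capitals. They are at chr11:96365508-96365807 and chr11:96281655-96281954, both on the plus strand. In the Hoxb8 window the motif is on the opposite strand. Hoxa10, which rose most in STRA8KO, has 2 windows, and the one printed is at chr6:52240805-52241104 on the minus strand and holds neither TGATNNAT nor TATAAA. A match or its absence in these windows says nothing of sites elsewhere in the clusters, which were not searched.
Hoxb1: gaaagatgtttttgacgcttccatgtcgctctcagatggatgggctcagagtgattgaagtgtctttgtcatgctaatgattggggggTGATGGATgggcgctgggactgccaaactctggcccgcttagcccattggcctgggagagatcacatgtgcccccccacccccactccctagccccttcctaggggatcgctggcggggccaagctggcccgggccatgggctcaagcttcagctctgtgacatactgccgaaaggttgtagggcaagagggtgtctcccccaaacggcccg
Hoxb8: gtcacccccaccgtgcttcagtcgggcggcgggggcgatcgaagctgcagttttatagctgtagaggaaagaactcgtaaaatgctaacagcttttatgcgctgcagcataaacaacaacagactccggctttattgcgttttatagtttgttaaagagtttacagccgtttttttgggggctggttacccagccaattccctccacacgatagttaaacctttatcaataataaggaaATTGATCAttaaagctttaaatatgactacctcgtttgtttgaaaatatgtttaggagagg
Hoxa10: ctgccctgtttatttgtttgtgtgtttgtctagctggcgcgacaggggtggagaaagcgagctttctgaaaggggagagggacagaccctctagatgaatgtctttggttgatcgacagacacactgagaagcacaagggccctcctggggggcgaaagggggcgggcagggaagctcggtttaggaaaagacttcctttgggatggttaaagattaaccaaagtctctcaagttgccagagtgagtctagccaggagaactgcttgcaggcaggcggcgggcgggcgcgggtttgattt

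Total counts per library ranged from 20960794 to 27038868. Stra8 had at most 170 counts in STRA8KO libraries, against 12604 and 16191 in SPO11KO NRRA. Spo11 had 72 to 148 counts in libraries labelled SPO11KO and 31 to 68 counts in STRA8KO and was thus no lower under its own label, so gene counts did not check that label, and it is used here as the submitters gave it. Markers of cells other than the cultured germ cells differed between groups. The summed level of 20 fibroblast markers was 29215 and 29868 CPM (STRA8KO Veh), 47234 and 46480.4 (STRA8KO NRRA), 15342 and 15444 (SPO11KO Veh) and 24488 and 23767 CPM (SPO11KO NRRA), where CPM are counts per 1e+06 counts of a library after TMM scaling. The 8 pan-germ markers summed to 753 and 753, 948 and 896, 1533 and 1581, and 1815 and 1872 CPM in the same order. The labelled cell type thus had its markers in every library. The 5 Sertoli markers summed to between 14.8 and 45.0 CPM and the 5 macrophage markers to between 33.9 and 61.7 CPM, with none of either list at 0 in all libraries.

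Hox transcripts were present in all libraries, and 35 of the 39 genes passed the count filter. Hoxa13 (0 to 11 counts per library), Hoxd1 (0 to 8), Hoxd12 (0 or 1) and Hoxd13 (0 to 5) did not and were not tested. Hoxa13, at the late end of cluster A, had 8 and 4 counts (STRA8KO Veh), 2 and 11 (STRA8KO NRRA), 10 and 7 (SPO11KO Veh) and 1 and 0 counts (SPO11KO NRRA). Hoxd1, at the early end of cluster D, had 2 and 2 counts (STRA8KO Veh), 5 and 7 (STRA8KO NRRA), 1 and 0 (SPO11KO Veh) and 6 and 8 counts (SPO11KO NRRA). Counts this low were not tested, and no direction under NRRA is read from them. Cluster B made up most of the summed Hox level in the libraries labelled SPO11KO. Its share of the summed CPM of all Hox genes was 45.7% and 45.5% (STRA8KO Veh), 42.8% and 42.7% (STRA8KO NRRA), 73.1% and 72.2% (SPO11KO Veh) and 60.4% and 60.2% (SPO11KO NRRA). No library of STRA8KO reached the share of any library labelled SPO11KO.

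Levels of different genes were compared per kb of exon. In STRA8KO Veh the highest were Hoxc6 at 31.3 ± 0.0473 CPM per kb (SD, n = 2), Hoxb9 at 23.9 ± 0.442 and Hoxb8 at 14.8 ± 0.694 CPM per kb. In SPO11KO Veh they were Hoxb8 at 42.0 ± 1.66 CPM per kb, Hoxb9 at 32.3 ± 1.38, Hoxb6 at 29.0 ± 0.332 and Hoxb7 at 23.1 ± 1.87 CPM per kb. Under NRRA, Hoxc6 (26.9 ± 0.397 CPM per kb) and Hoxc8 (22.4 ± 1.56 CPM per kb) led in STRA8KO, and Hoxb8 (21.8 ± 2.02 CPM per kb) and Hoxb9 (15.6 ± 0.384 CPM per kb) in the libraries labelled SPO11KO. In all groups the central paralogs, 6 to 9, held the highest levels. Cluster D was the lowest cluster, with Hoxd8 alone above 2 CPM per kb in any group mean.

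**Figure D1:**
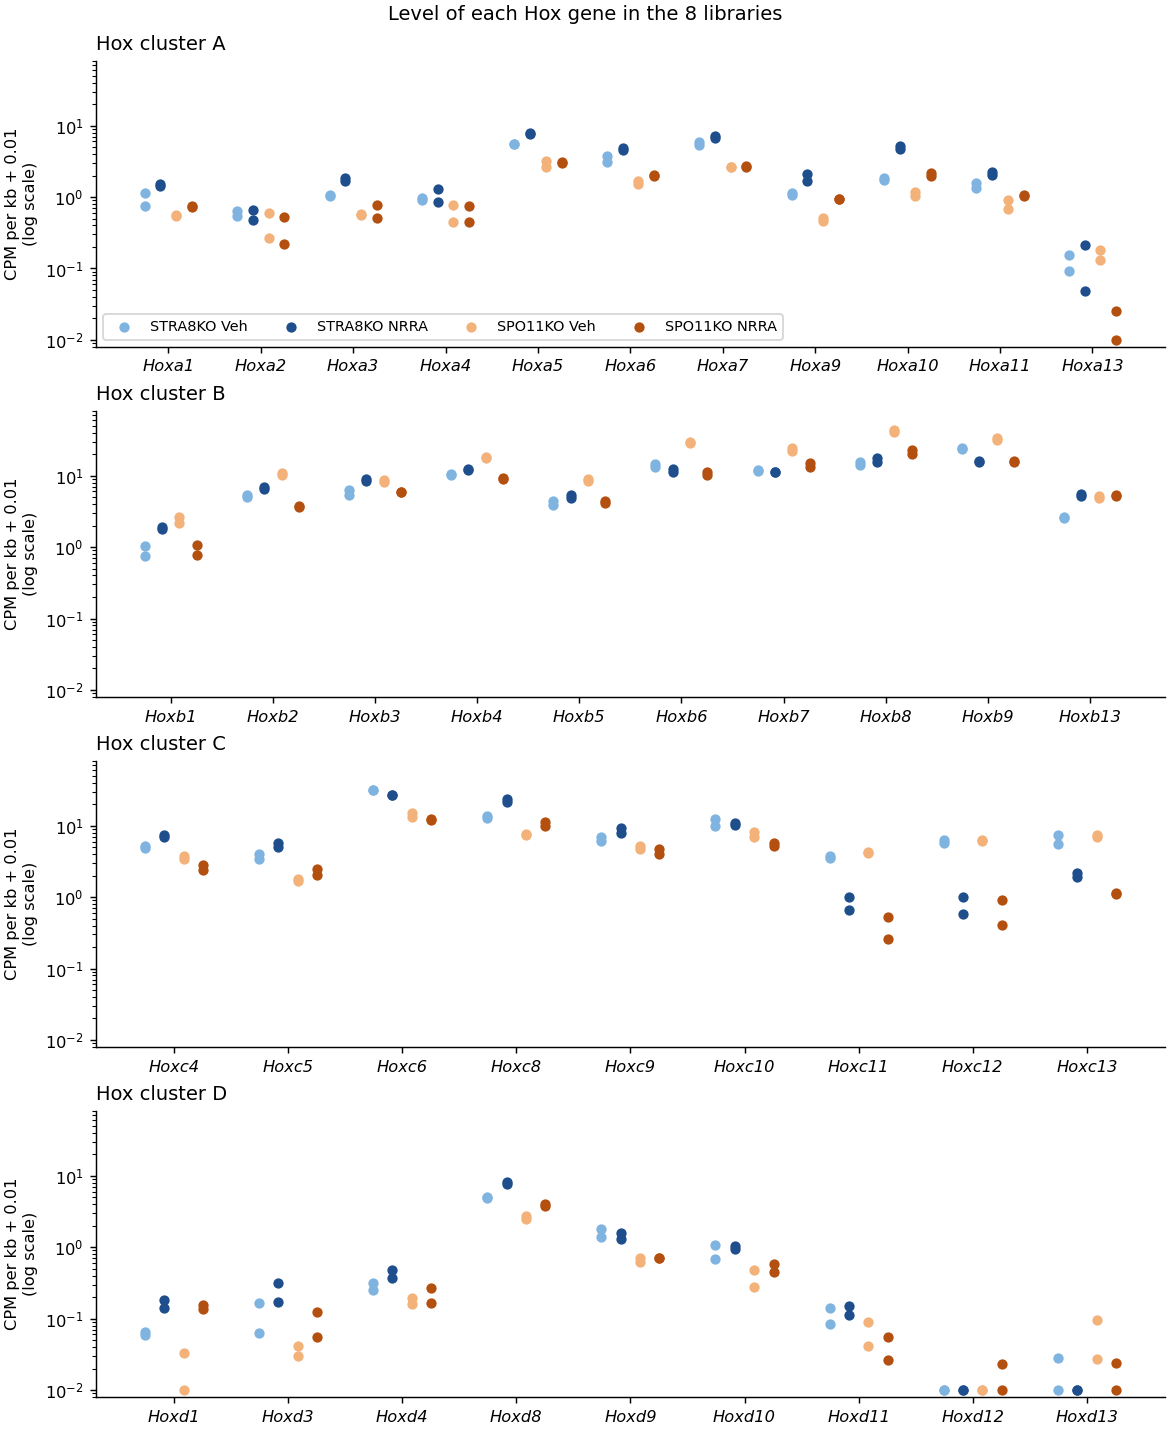
Level of each of the 39 Hox genes (CPM per kb of exon plus 0.01, log scale) in the 8 libraries, 1 panel for each cluster and genes in order of paralog number, with groups by colour and 1 point for each library. Cluster B was highest in SPO11KO Veh for 8 of its 10 genes by mean, and Hoxc11, Hoxc12 and Hoxc13 lay lower in all 4 NRRA libraries than in any Veh library.

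To see how Hox genes responded to NRRA where Stra8 was deficient, STRA8KO NRRA was compared with STRA8KO Veh. Most genes of cluster A rose, as did Hoxb1 to Hoxb5 and Hoxb13 of cluster B, and the high-number end of cluster C fell. In the quasi-likelihood test of edgeR (adjusted p under 0.05 after Benjamini-Hochberg correction), 18 Hox genes were called higher and 6 lower of 35 tested, against 21.6% higher and 20.2% lower (41.9% called) among all 20588 tested genes. The median log2 fold change of the Hox genes was 0.38, with 0.01 over all genes. Cluster A had 7 genes higher and none lower, and cluster B 6 higher and 2 lower. Cluster C had 4 higher and 4 lower, and cluster D had 1 higher, which was Hoxd8. The fibroblast markers moved in the same comparison, with 12 of 20 higher, 6 lower and a summed change of 0.67 (log2), and their part in the Hox changes was not tested.

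Hoxa10, a gene of the trunk-to-limb range of paralogs, had 6.04 and 5.64 CPM (STRA8KO Veh), 15.5 and 17.1 (STRA8KO NRRA), 3.37 and 3.79 (SPO11KO Veh) and 7.14 and 6.35 CPM (SPO11KO NRRA). Every NRRA library lay above every Veh library of either genotype. It rose by 1.48 (log2, SE 0.128, edgeR adjusted p 4.81e-14) in STRA8KO. Its neighbour Hoxa9, a gene best known from blood stem cells and leukaemia, had 6.35 and 5.89 CPM (STRA8KO Veh), 11.8 and 9.37 (STRA8KO NRRA), 2.53 and 2.78 (SPO11KO Veh) and 5.13 and 5.12 CPM (SPO11KO NRRA). NRRA libraries lay above the Veh libraries of their genotype, with a rise of 0.78 (log2, SE 0.145, edgeR adjusted p 1.19e-05) in STRA8KO and 0.95 (log2, SE 0.178) in the cultures labelled SPO11KO. Hoxb13, which lies apart from the rest of cluster B and is known from the tail bud and prostate, had 5.59 and 5.74 CPM (STRA8KO Veh), 12.2 and 11.5 (STRA8KO NRRA), 11.3 and 10.6 (SPO11KO Veh) and 11.3 and 11.7 CPM (SPO11KO NRRA). Only the STRA8KO Veh libraries stood apart for this gene. It rose by 1.07 (log2, SE 0.128, edgeR adjusted p 9.42e-10) in STRA8KO.

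Hoxc11, Hoxc12 and Hoxc13 form the high-number end of cluster C, and Hoxc13 is needed for hair and nails. All 3 fell in both genotypes. Hoxc12 had 5.86 and 6.50 CPM (STRA8KO Veh), 0.579 and 1.02 (STRA8KO NRRA), 6.53 and 6.22 (SPO11KO Veh) and 0.926 and 0.409 CPM (SPO11KO NRRA). Veh and NRRA libraries did not overlap, and it fell by 2.93 (log2, SE 0.260, edgeR adjusted p 9.95e-14) in STRA8KO and fell by 3.28 (log2, SE 0.249, edgeR adjusted p 5.05e-16) in the cultures labelled SPO11KO. Hoxc11 had 7.51 and 7.10 CPM (STRA8KO Veh), 1.30 and 2.03 (STRA8KO NRRA), 8.38 and 8.70 (SPO11KO Veh) and 1.04 and 0.512 CPM (SPO11KO NRRA). It fell by 2.12 (log2, SE 0.209, edgeR adjusted p 2.98e-12) in STRA8KO and fell by 3.48 (log2, SE 0.222, edgeR adjusted p 8.47e-19) in those labelled SPO11KO. Hoxc13 had 13.8 and 18.0 CPM (STRA8KO Veh), 4.68 and 5.40 (STRA8KO NRRA), 18.2 and 17.2 (SPO11KO Veh) and 2.82 and 2.70 CPM (SPO11KO NRRA). It fell by 1.65 (log2, SE 0.135, edgeR adjusted p 7.05e-15) in STRA8KO and fell by 2.68 (log2, SE 0.139, edgeR adjusted p 3.02e-22) in those labelled SPO11KO. Hotair, the noncoding RNA transcribed from the other strand between Hoxc11 and Hoxc12, also changed, and it fell by 1.57 (log2, SE 0.486, edgeR adjusted p 0.00702) in STRA8KO and fell by 3.43 (log2, SE 0.568, edgeR adjusted p 1.23e-06) in those labelled SPO11KO, on 3 to 36 counts per library. Next to these genes, Hoxc10 showed no call in STRA8KO (log2 -0.08, SE 0.0971) and fell by 0.46 (log2, SE 0.108, edgeR adjusted p 3.40e-04) in the cultures labelled SPO11KO. The strong falls thus ended between Hoxc11 and Hoxc10.

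In the cultures labelled SPO11KO, which made a strong Stra8 response, NRRA lowered cluster B. Of 35 Hox genes, 5 were called higher and 15 lower, against 24.5% higher and 25.5% lower (49.9% called) among all tested genes, and the median was -0.18 (log2) with 0.01 over all genes. That median was -0.063 without SPO11KO Veh replicate 1, -0.11 without SPO11KO Veh replicate 2, -0.084 without SPO11KO NRRA replicate 1, -0.085 with total counts and -0.10 with a mean count of at least 10. When libraries were scaled by total counts, the Hox calls were 5 higher and 14 lower, and the higher share of all calls went from 49% to 61.7%. Cluster B had none higher and 9 of 10 lower, and the tenth, Hoxb13, changed by 0.07 (log2, SE 0.109, edgeR adjusted p 0.614). Cluster A had 2 higher (Hoxa9 and Hoxa10) and none lower, cluster C 2 higher (Hoxc5 and Hoxc8) and 6 lower, and cluster D 1 higher (Hoxd8). Markers of undifferentiated spermatogonia moved with cluster B. All 6 (Gfra1, Zbtb16, Etv5, Lhx1, Id4 and Ret) fell in the cultures labelled SPO11KO, and their sum went from 1153 and 1144 CPM to 261 and 263 CPM. In STRA8KO 3 of them rose and 3 fell, and their sum was 521 and 513 CPM in Veh and 518 and 512 CPM in NRRA. Of the fibroblast markers, 13 rose and 7 fell in the cultures labelled SPO11KO. The part of either marker list in the change of cluster B was not tested.

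Hoxb2, a hindbrain gene with a known retinoic acid response, had 17.5 and 18.8 CPM (STRA8KO Veh), 24.1 and 22.9 (STRA8KO NRRA), 38.2 and 36.1 (SPO11KO Veh) and 12.7 and 13 CPM (SPO11KO NRRA). The group order was the same in both libraries, with SPO11KO Veh highest and SPO11KO NRRA lowest. It fell by 1.53 (log2, SE 0.0809, edgeR adjusted p 6.53e-22) in the cultures labelled SPO11KO. Hoxb6 had 28.7 and 26.0 CPM (STRA8KO Veh), 22 and 24.4 (STRA8KO NRRA), 56.6 and 57.5 (SPO11KO Veh) and 21.8 and 19.8 CPM (SPO11KO NRRA). The 2 NRRA groups did not overlap with SPO11KO Veh, and Hoxb6 fell by 1.46 there (log2, SE 0.0710, edgeR adjusted p 2.44e-23). Hoxb1, the hindbrain gene that marks rhombomere identity and a textbook retinoic acid target, had 1.74 and 2.37 CPM (STRA8KO Veh), 4.2 and 4.38 (STRA8KO NRRA), 5.10 and 6.09 (SPO11KO Veh) and 2.43 and 1.77 CPM (SPO11KO NRRA). Its direction differed between genotypes, with a rise of 1.07 (log2, SE 0.221, edgeR adjusted p 7.14e-05) in STRA8KO while it fell by 1.42 (log2, SE 0.197, edgeR adjusted p 2.81e-08) in the cultures labelled SPO11KO.

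Hoxb3 to Hoxb5 and Hoxb7 to Hoxb9 fell there by 0.52 (Hoxb3) to 1.05 (Hoxb9) on the log2 scale. Hoxb4, a stem cell gene of the blood, had 26.7 and 26.4 CPM (STRA8KO Veh), 30.3 and 31.3 (STRA8KO NRRA), 46.9 and 45.9 (SPO11KO Veh) and 22.9 and 23.6 CPM (SPO11KO NRRA). Its rise in STRA8KO was small (log2 0.21, SE 0.0735, edgeR adjusted p 0.016) and lost its call with DESeq2 and without either STRA8KO Veh library or STRA8KO NRRA replicate 2, where it was between 0.19 and 0.22. Hoxb5 had 10.8 and 12.2 CPM (STRA8KO Veh), 14.7 and 13.5 (STRA8KO NRRA), 24.7 and 23.7 (SPO11KO Veh) and 11.5 and 12.1 CPM (SPO11KO NRRA). Its rise in STRA8KO (log2 0.30, SE 0.106, edgeR adjusted p 0.0197) was 0.20 without STRA8KO Veh replicate 1 and 0.24 without STRA8KO NRRA replicate 1, with no call, and it also lost its call with DESeq2. Hoxb3 had 27.1 and 22.4 CPM (STRA8KO Veh), 37.6 and 35.2 (STRA8KO NRRA), 37.4 and 34.2 (SPO11KO Veh) and 25.0 and 25.1 CPM (SPO11KO NRRA). NRRA thus brought it in STRA8KO to the range of SPO11KO Veh, and in the cultures labelled SPO11KO to that of STRA8KO Veh.

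Hoxb7 had 18.2 and 18.3 CPM (STRA8KO Veh), 17.6 and 17.3 (STRA8KO NRRA), 33.6 and 37.7 (SPO11KO Veh) and 23.2 and 20.6 CPM (SPO11KO NRRA). Hoxb8, which is needed in microglia and the spinal cord, had 40.3 and 37.7 CPM (STRA8KO Veh), 40.8 and 46.1 (STRA8KO NRRA), 114 and 108 (SPO11KO Veh) and 53.6 and 61.1 CPM (SPO11KO NRRA). Both were lower in STRA8KO than in the libraries labelled SPO11KO in either medium. Neither Hoxb7 (log2 -0.06, SE 0.0925, edgeR adjusted p 0.615) nor Hoxb8 (log2 0.16, SE 0.0689, edgeR adjusted p 0.0638) had a call for NRRA in STRA8KO, although Hoxb8 was called at 0.24 without STRA8KO NRRA replicate 1. Hoxb9 had 60.8 and 62.4 CPM (STRA8KO Veh), 40.6 and 40.6 (STRA8KO NRRA), 85.5 and 80.5 (SPO11KO Veh) and 39.5 and 40.9 CPM (SPO11KO NRRA). It fell by 0.60 (log2, SE 0.0598, edgeR adjusted p 3.93e-12) in STRA8KO and fell by 1.05 (log2, SE 0.0558, edgeR adjusted p 8.76e-22) in the cultures labelled SPO11KO. Hoxb6 fell by 0.24 (log2, SE 0.0801, edgeR adjusted p 0.0136) in STRA8KO, and this call was lost without STRA8KO Veh replicate 1 or STRA8KO NRRA replicate 1, with -0.16 each time.

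**Figure D2:**
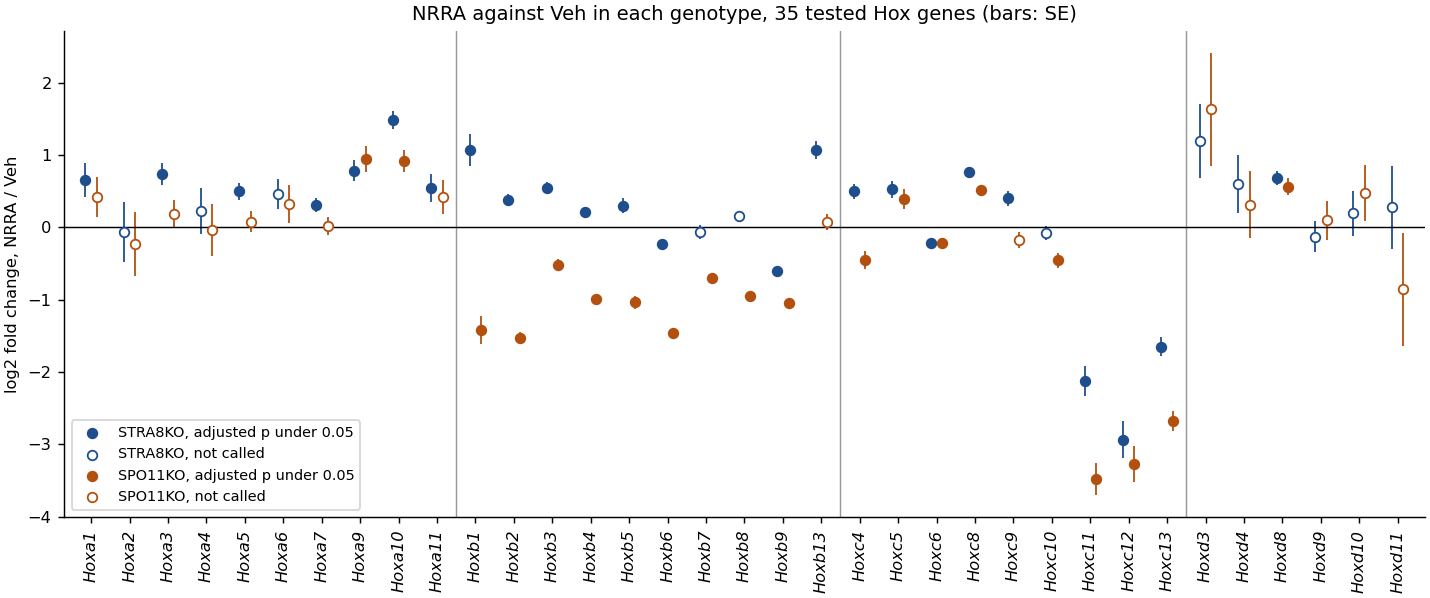
Log2 fold change of NRRA against Veh for the 35 tested Hox genes (vertical axis), in STRA8KO (blue) and in cultures labelled SPO11KO (orange), with bars of 1 SE and filled points for an adjusted p under 0.05. Genes run by cluster (A to D, separated by lines) and paralog number. The points of the cluster B genes lay apart for the genotypes, while those of Hoxc11 to Hoxc13 lay far below 0 in both.

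Hoxc6 and Hoxc8 of cluster C were among the 10 Hox genes with the highest summed CPM, and Hoxd8 led cluster D. Hoxc6 had 75.3 and 75.4 CPM (STRA8KO Veh), 64.1 and 65.5 (STRA8KO NRRA), 32.3 and 36.2 (SPO11KO Veh) and 30.2 and 29.0 CPM (SPO11KO NRRA). It fell by 0.22 (log2, SE 0.0574, edgeR adjusted p 0.00167) in STRA8KO and fell by 0.21 in the cultures labelled SPO11KO (log2, SE 0.0660, edgeR adjusted p 0.00625). The second of these had no call with total counts, without a count filter, or without SPO11KO Veh replicate 2, where it was -0.14. Hoxc8 had 38.4 and 36.2 CPM (STRA8KO Veh), 66.6 and 60.4 (STRA8KO NRRA), 20.7 and 21.5 (SPO11KO Veh) and 28.4 and 31.8 CPM (SPO11KO NRRA). It rose in both, by 0.77 (log2, SE 0.0671, edgeR adjusted p 6.80e-14) and by 0.51 (log2, SE 0.0757, edgeR adjusted p 1.08e-07). Hoxd8 had 13.4 and 13.7 CPM (STRA8KO Veh), 20.8 and 22.6 (STRA8KO NRRA), 6.86 and 7.53 (SPO11KO Veh) and 11 and 10.2 CPM (SPO11KO NRRA), with rises of 0.68 (log2, SE 0.0991) and 0.56 (log2, SE 0.116). For Hoxc8 and Hoxd8 the NRRA libraries lay above the Veh libraries of their genotype.

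To describe the genotypes at baseline, STRA8KO Veh was compared with SPO11KO Veh. The clusters parted by direction, since all 10 genes of cluster B were lower in STRA8KO and no tested gene of clusters A, C or D was called lower. In all, 18 Hox genes were higher and 10 lower, against 31.6% higher and 30.7% lower (62.3% called) among all tested genes, with a median of 0.61 (log2) and 0.00 over all genes. Clusters A (8 higher of 10 tested), C (6 of 9) and D (4 of 6) had medians of 0.90, 0.49 and 1.06 (log2). Cluster B had a median of -1.0 (log2) and a range from -1.51 (Hoxb8, SE 0.0623, edgeR adjusted p 4.57e-25) to -0.43 (Hoxb9, SE 0.0548, edgeR adjusted p 1.83e-09). The log2 fold change was -1.45 for Hoxb1 (SE 0.209, edgeR adjusted p 4.16e-08) and -1.08 for Hoxb5 (SE 0.0969, edgeR adjusted p 7.95e-14). Hoxc11, Hoxc12 and Hoxc13 had no call (log2 -0.22, -0.05 and -0.16), although Hoxc13 was called at -0.36 without STRA8KO Veh replicate 2 and at -0.27 with total counts.

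Cell type markers parted in the same comparison. All 20 fibroblast markers were higher in STRA8KO Veh (median 0.94, range 0.45 to 1.11 on the log2 scale), while all 8 pan-germ markers (median -1.0) and all 6 undifferentiated markers (median -1.24) were lower. Of the 5 macrophage markers 3 were higher and none lower (median 1.28). The medians of clusters A, C and D lay within the range of the fibroblast markers and that of cluster B within the range of the germ cell markers, and the part of cell type composition in these differences was not tested.

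Among the genes higher in STRA8KO Veh, Hoxd9 had 3.76 and 2.97 CPM (STRA8KO Veh), 2.80 and 3.37 (STRA8KO NRRA), 1.47 and 1.31 (SPO11KO Veh) and 1.5 and 1.47 CPM (SPO11KO NRRA). All 4 STRA8KO libraries lay above the 4 others, with differences of 1.28 (log2, SE 0.247, edgeR adjusted p 1.40e-05) in Veh and 1.05 (log2, SE 0.240) in NRRA. Hoxd3 had 5 and 13 counts (STRA8KO Veh), 14 and 28 (STRA8KO NRRA), 2 and 3 (SPO11KO Veh) and 5 and 14 counts (SPO11KO NRRA). Its difference in Veh (log2 1.95, SE 0.776, edgeR adjusted p 0.0266) fell to 1.03 without STRA8KO Veh replicate 2, had no call without either SPO11KO Veh library (1.68 and 2.28) or with DESeq2 (2.03), and rests on few counts. Hoxd10 had 1.21 and 1.91 CPM (STRA8KO Veh), 1.69 and 1.85 (STRA8KO NRRA), 0.842 and 0.479 (SPO11KO Veh) and 0.810 and 1.02 CPM (SPO11KO NRRA). It was higher by 1.22 (log2, SE 0.365, edgeR adjusted p 0.00347) in Veh, and lost that call without STRA8KO Veh replicate 2 (0.86) or SPO11KO Veh replicate 2 (0.87). In NRRA it was higher by 0.94 (log2, SE 0.325, edgeR adjusted p 0.0106), a call lost with DESeq2 and without STRA8KO NRRA replicate 2 (0.87) or SPO11KO NRRA replicate 1 (0.78).

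After NRRA the genotypes were compared again, and cluster B was no longer lower as a whole in STRA8KO. Between STRA8KO NRRA and SPO11KO NRRA, 28 Hox genes were higher in STRA8KO and 2 lower, against 35.0% higher and 28.9% lower (64.0% called) among all tested genes, and the median was 1.02 (log2) with 0.07 over all genes. Clusters A (9 of 10), C (8 of 9) and D (6 of 6) were again higher in STRA8KO, with medians of 1.14, 1.07 and 1.04 (log2). Cluster B had 5 genes higher, Hoxb1 to Hoxb5, and 2 lower, Hoxb7 and Hoxb8, and its median was 0.21 (log2). Scaled by total counts, the Hox calls were 25 higher and 3 lower, and the higher share of all calls went from 54.8% to 39.5%. The values of Hoxb6 (log2 0.16), Hoxb9 (0.01) and Hoxb13 (0.04) had no call and turned negative under total counts, where that of Hoxb9 was called at -0.19. All 20 fibroblast markers were higher in STRA8KO NRRA (median 0.92), 7 of 8 pan-germ markers lower (median -0.98), all 6 undifferentiated markers higher (median 1.24), and 4 of 5 macrophage markers were higher and none lower (median 0.90), and the part of these markers was not tested here either.

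Within cluster B the difference after NRRA ran from positive at the low-number end to negative in the centre. It was 1.04 (log2, SE 0.209) for Hoxb1, 0.87 (SE 0.0868) for Hoxb2, 0.54 (SE 0.0765) for Hoxb3, 0.40 (SE 0.0721) for Hoxb4 and 0.26 (SE 0.101) for Hoxb5, and it was -0.33 (SE 0.0869, edgeR adjusted p 0.00103) for Hoxb7 and -0.40 (SE 0.0639, edgeR adjusted p 4.56e-07) for Hoxb8. The call of Hoxb5 (edgeR adjusted p 0.0221) was lost with total counts (log2 0.05), with DESeq2 (0.23), without a count filter (0.21), with the 4 NRRA libraries alone (0.19), and without replicate 1 of either NRRA group (0.20 and 0.22). Outside cluster B, Hoxa3 had 6.44 and 6.14 CPM (STRA8KO Veh), 10.0 and 10.9 (STRA8KO NRRA), 3.33 and 3.39 (SPO11KO Veh) and 3.01 and 4.57 CPM (SPO11KO NRRA). Its difference of 1.45 (log2, SE 0.155, edgeR adjusted p 1.27e-11) in NRRA had no overlap between the groups. Hoxd11 had 7 and 11 counts (STRA8KO Veh), 9 and 13 (STRA8KO NRRA), 8 and 3 (SPO11KO Veh) and 5 and 2 counts (SPO11KO NRRA). In NRRA it was higher by 1.98 (log2, SE 0.681, edgeR adjusted p 0.00990), and lost its call without STRA8KO NRRA replicate 2 (1.73), without SPO11KO NRRA replicate 2 (1.41) and with DESeq2. Hoxd3 was higher by 1.52 (log2, SE 0.508, edgeR adjusted p 0.00831), with 0.97 and no call without STRA8KO NRRA replicate 2, 1.04 and no call without SPO11KO NRRA replicate 1, and 2.33 without SPO11KO NRRA replicate 2. Hoxc11 was higher by 1.13 (log2, SE 0.308, edgeR adjusted p 0.00131) on 15 to 44 counts per library. That value was 0.69 without SPO11KO NRRA replicate 2 and 0.77 without STRA8KO NRRA replicate 2, both without a call, and 1.70 without SPO11KO NRRA replicate 1.

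**Figure D3:**
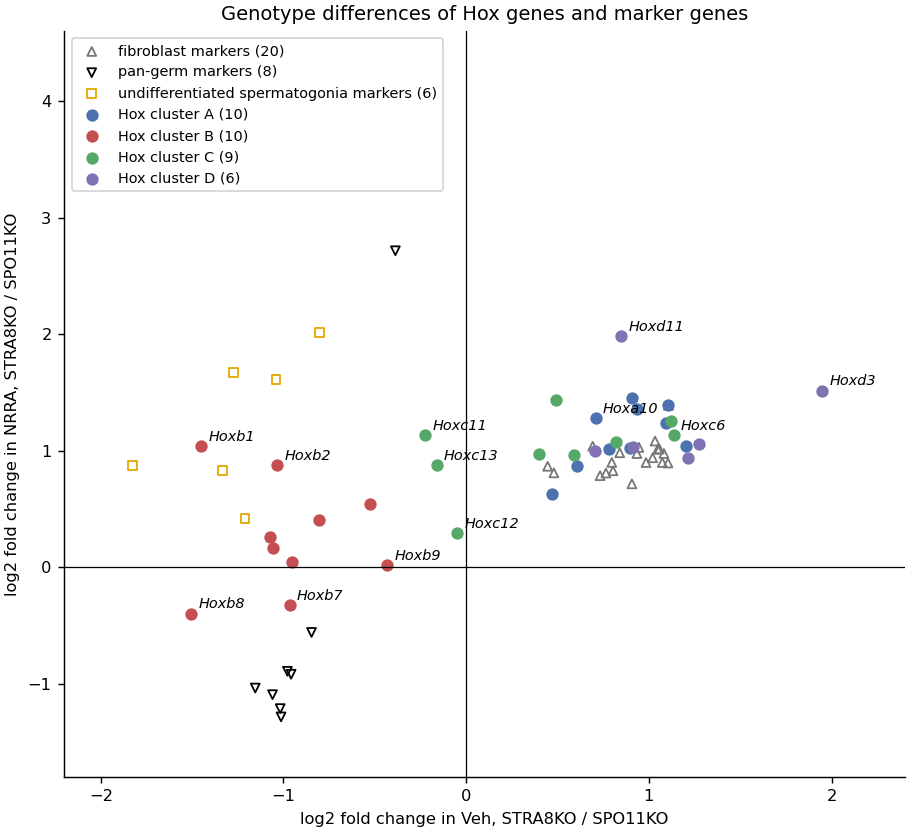
Log2 fold change of STRA8KO against SPO11KO in Veh (horizontal axis) and in NRRA (vertical axis) for the 35 tested Hox genes (filled circles by cluster) and for fibroblast, pan-germ and undifferentiated spermatogonia markers (open symbols). All tested genes of clusters A and D lay above 0 on both axes, like the fibroblast markers, as did 6 of the 9 genes of cluster C. Cluster B lay left of 0, as did the pan-germ and the undifferentiated markers. On the vertical axis cluster B ran from -0.40 to 1.04. The pan-germ markers ran there from -1.29 to 2.72 and the undifferentiated markers from 0.42 to 2.02.

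The summed levels show the same division. Cluster A summed to 58.0 and 54.1 CPM (STRA8KO Veh), 85.9 and 88.9 (STRA8KO NRRA), 28.4 and 29.7 (SPO11KO Veh) and 35.9 and 36.8 CPM (SPO11KO NRRA). Cluster B summed to 237 and 232 CPM (STRA8KO Veh), 244 and 247 (STRA8KO NRRA), 453 and 439.9 (SPO11KO Veh) and 224 and 229.5 CPM (SPO11KO NRRA), so that SPO11KO Veh stood apart from the other 6 libraries. Cluster C summed to 204 and 204, 212 and 211, 128 and 129.7, and 96.8 and 100.3 CPM, and cluster D to 19.7 and 20.8, 27.7 and 31.4, 10.4 and 10.1, and 14.4 and 14.3 CPM, in the same order.

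**Figure D4:**
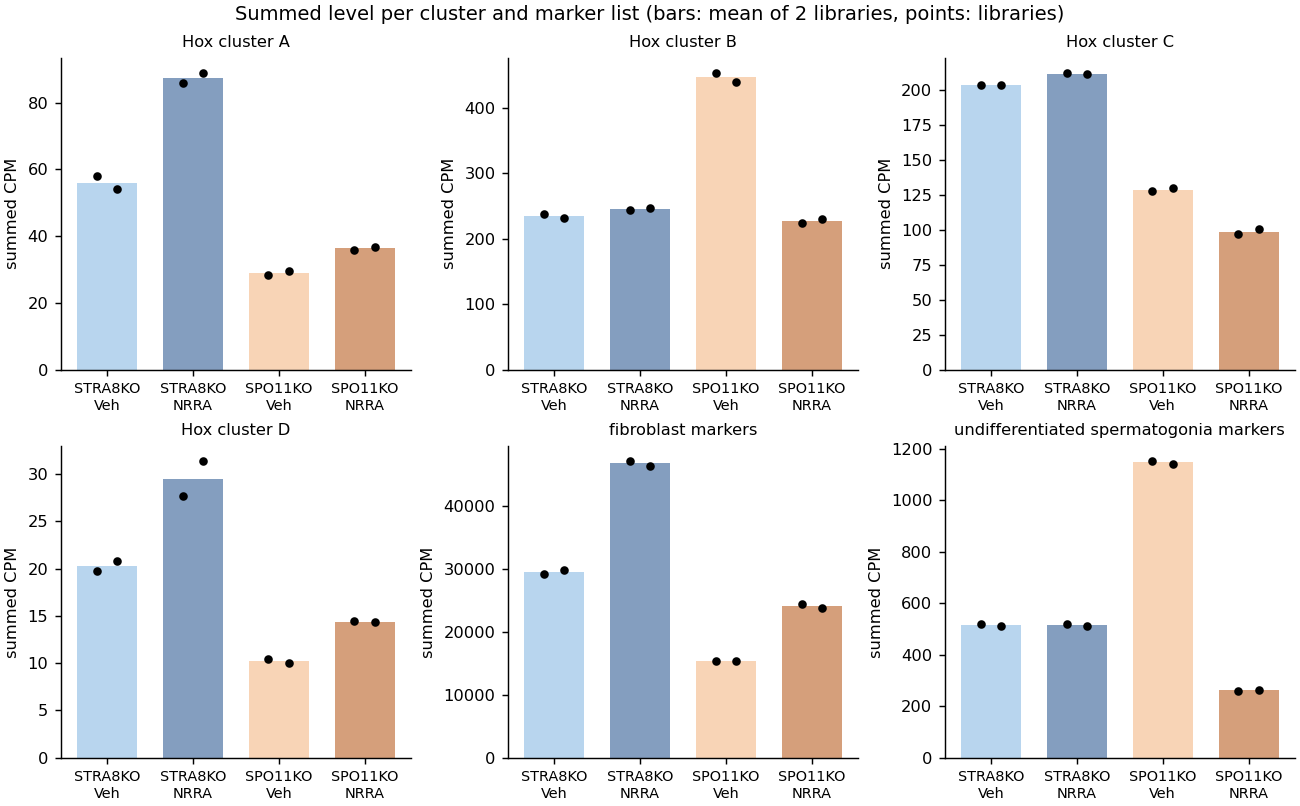
Summed CPM of each Hox cluster, of 20 fibroblast markers and of 6 undifferentiated spermatogonia markers in each group (bars: mean of 2 libraries, points: libraries), with the vertical axis of each panel starting at 0. Cluster B and the undifferentiated markers were highest in SPO11KO Veh, and clusters A and D and the fibroblast markers in STRA8KO NRRA.

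Whether the NRRA effect itself differed between genotypes was tested by the interaction, the log2 effect in STRA8KO minus that in the cultures labelled SPO11KO. It was positive and called for 16 of 35 Hox genes and negative and called for none, against 14.8% positive and 10.3% negative (25.1% called) among all tested genes, and the median was 0.42 (log2) with 0.01 over all genes. At an unadjusted p under 0.05 it was positive for 19 Hox genes and negative for 0, and DESeq2 and every other setting also called no negative value. With total counts 14 Hox genes were called, all positive, and the positive share of all calls went from 59% to 38.7%. All 10 genes of cluster B were among the 16, with 5 of 9 in cluster C (Hoxc4, Hoxc9, Hoxc10, Hoxc11 and Hoxc13), 1 of 10 in cluster A (Hoxa10) and 0 of 6 in cluster D, where 0 genes passed an unadjusted p under 0.05. The 6 undifferentiated markers had interactions of 1.63 to 2.95, all called, and the 8 pan-germ markers had 2 positive and 2 negative calls and a median of 0.06 (log2). The fibroblast markers had 5 positive and 3 negative calls and a median of 0.04 (log2). The part of these markers in the Hox interactions was not tested.

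Hoxb1 had the largest interaction of the Hox genes at 2.49 (log2, SE 0.296, edgeR adjusted p 2.27e-09), followed by Hoxb2 at 1.91 (SE 0.118, edgeR adjusted p 1.96e-18). Hoxb3 to Hoxb6 had values of 1.06 to 1.34, Hoxb7 and Hoxb9 of 0.64 (SE 0.121) and 0.45 (SE 0.0820), Hoxb8 of 1.10 (SE 0.0898) and Hoxb13 of 0.99 (SE 0.169). None of the cluster B calls in this comparison, in SPO11KO NRRA against SPO11KO Veh, or in STRA8KO Veh against SPO11KO Veh was lost when any 1 library was left out. Hoxc11 had an interaction of 1.35 (SE 0.345, edgeR adjusted p 0.00215), which was 0.99 without STRA8KO NRRA replicate 2 and 0.91 without SPO11KO NRRA replicate 2, in both cases with no call. The calls of Hoxa10 (0.57, edgeR adjusted p 0.0336) and Hoxc10 (0.38, edgeR adjusted p 0.0497) were each lost with total counts, with DESeq2, without a count filter, and on leaving out any of 5 of the 8 libraries, and that of Hoxc10 also with size factors in place of TMM. Those libraries were STRA8KO Veh replicates 1 and 2, STRA8KO NRRA replicate 2 and SPO11KO Veh and NRRA replicates 2 for Hoxa10, where the value was 0.48 to 0.62. For Hoxc10 they were STRA8KO Veh replicate 2 (0.24), both STRA8KO NRRA libraries (0.34 and 0.41) and replicates 1 of both SPO11KO groups (0.26 and 0.30). Hoxc10 had 23.7 and 19.1 CPM (STRA8KO Veh), 20.8 and 19.8 (STRA8KO NRRA), 15.3 and 13.2 (SPO11KO Veh) and 9.76 and 11 CPM (SPO11KO NRRA).

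**Figure D5:**
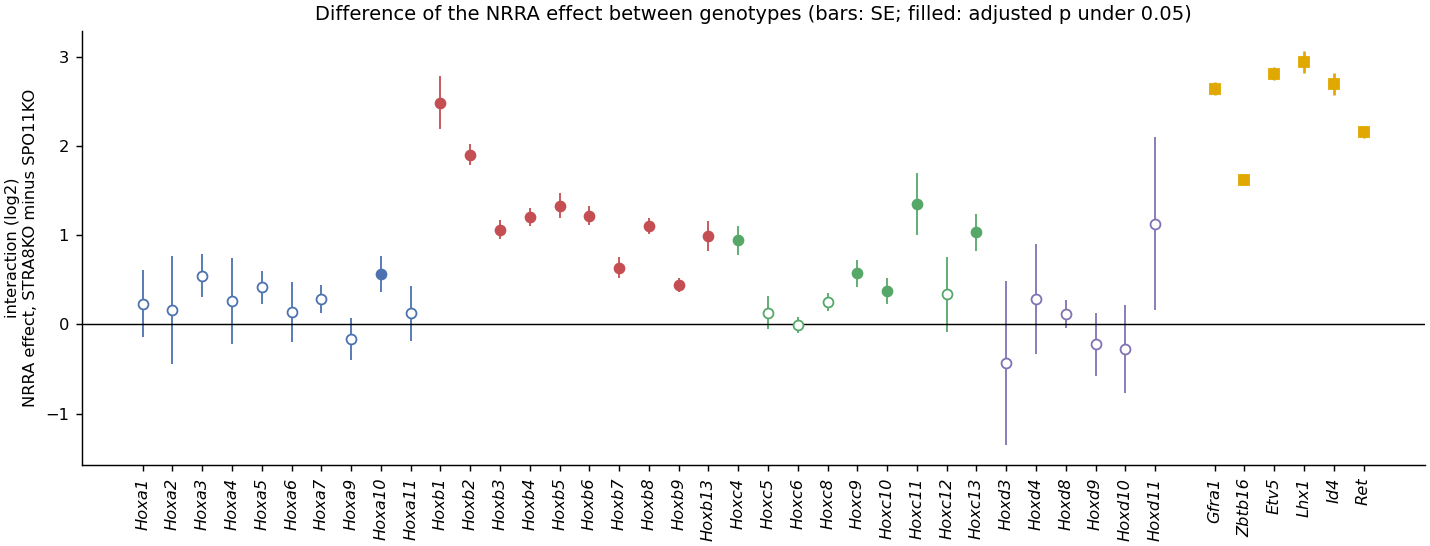
Interaction (log2 NRRA effect in STRA8KO minus that in cultures labelled SPO11KO, vertical axis) for the 35 tested Hox genes, coloured by cluster (A blue, B red, C green, D purple), and for 6 undifferentiated spermatogonia markers (gold squares), with bars of 1 SE and filled symbols for an adjusted p under 0.05. Cluster B lay between 0.45 and 2.49, and the undifferentiated markers between 1.63 and 2.95.

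Genes of the same paralog number in different clusters arose from a shared ancestor and bind similar sites, and their calls were set side by side. There were 12 paralog numbers with more than 1 tested gene. In the comparison of the genotypes in Veh, 8 of them held both a gene called higher and a gene called lower, and the cluster B member was the lowest of its number in 10 of the 10 numbers that have one. Paralog 8 is an example, with Hoxb8 at -1.51, Hoxc8 at 0.82 and Hoxd8 at 0.91 (log2). Among all tested genes 31.6% were higher and 30.7% lower in Veh. The paralog counts in Veh restate the calls by cluster, since all 10 genes of cluster B and no other tested Hox gene were called lower. For NRRA against Veh, calls in both directions occurred at 3 numbers in STRA8KO (9, 11 and 13) and at 4 in the cultures labelled SPO11KO (5, 8, 9 and 10). At paralog 13 in STRA8KO, Hoxb13 rose by 1.07 while Hoxc13 fell by 1.65 (log2). Across the 35 genes, the NRRA effects of the genotypes, which share no library, correlated at 0.83 (Pearson) and 0.68 (Spearman), and 24 had the same sign. That correlation is across genes, which are not independent replicates, and Hoxc11 to Hoxc13 lie far from the rest.

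Because fibroblast markers differed between groups, each Hox gene was also tested relative to the summed counts of the 20 fibroblast markers in the same library. On this scale 72.3% of all tested genes were lower and 3.23% higher in STRA8KO Veh than in SPO11KO Veh. None of the 16 tested genes of clusters A and D had a call in either direction, with medians of -0.04 and 0.13 (log2). All 10 genes of cluster B were lower (median -1.94), as were 6 of cluster C, and 1, Hoxc6, was higher by 0.20 (log2), a call that was lost without SPO11KO Veh replicate 1 or without the collagen genes among the markers. In NRRA, where 71.5% of all genes were lower and 3.89% higher, 4 genes of cluster A (Hoxa3, Hoxa5, Hoxa7 and Hoxa10) and 3 of cluster C (Hoxc4, Hoxc5 and Hoxc6) were higher and 8 of cluster B were lower. Hoxb1 (0.08) and Hoxb2 (-0.09) had no call there. The interaction was called for 15 Hox genes, all positive, against 13.1% positive and 10.6% negative among all genes, and all 10 genes of cluster B were among them.

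For NRRA against Veh this scale depended on which fibroblast markers were summed. Of the 8 collagen genes among them, 7 rose under NRRA in each genotype. Among the other markers Fn1 had the highest level in every library. Its NRRA effect was -0.42 for STRA8KO and -0.38 for the SPO11KO label (log2). Lum (-0.73 and -0.52), Prrx1 (-0.55 and -0.38), Thy1 (-0.23 and -0.14) and Twist2 (-0.15 and -0.43) also fell in both. Sparc, Dcn, Postn, Pdgfra and Pdgfrb rose in both. Fbn1 (0.12) and Twist1 (-0.29) were called only in the cultures labelled SPO11KO. The part of Fn1 or of any other single marker in the counts below was not tested. With all 20 markers, 2 Hox genes were higher (Hoxa10 and Hoxb13) and 15 lower in STRA8KO, against 5.68% and 67.4% of all genes, and the cultures labelled SPO11KO had 0 higher and 20 lower, against 5.83% and 68.0% of all genes. Without the collagen genes the counts were 21 higher and 4 lower in STRA8KO, and 5 higher in the cultures labelled SPO11KO, whose number lower is not printed. The share of all genes called was not counted without the collagen genes, so these Hox counts have no background beside them. They are given only to show how far the scale moved. Relative to all 20 markers, Hoxc11, Hoxc12 and Hoxc13 had log2 fold changes of -2.79, -3.59 and -2.31 in STRA8KO and of -4.13, -3.93 and -3.33 in the cultures labelled SPO11KO.

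Outside the Hox clusters, most listed retinoic acid response genes rose under NRRA in both genotypes. No library had retinoic acid or nutrient restriction alone, so the part of each was not tested. Of 8 response genes, STRA8KO had 7 that rose and the cultures labelled SPO11KO had 8, led by the receptor gene Rarb at 5.46 (log2, SE 0.187) and 5.60 (log2, SE 0.245). The retinoic acid-degrading enzyme gene Cyp26a1 rose by 4.63 and 4.02, and the retinal reductase gene Dhrs3 by 3.45 and 2.85 (log2). No Hox gene rose by more than 1.48 in STRA8KO or 0.95 in the cultures labelled SPO11KO among those called. Of the 9 TALE genes, which encode the PBX, MEIS and PKNOX partners of HOX proteins, 4 rose and none fell in STRA8KO, and 6 rose and 1 fell in those labelled SPO11KO, beside 41.9% and 49.9% of all genes called in either direction. Meis2 rose by 0.99 (log2, SE 0.0863) and 0.78 (SE 0.101). In Veh, where 62.3% of all genes were called, 5 TALE genes were higher and 2 lower in STRA8KO, with Meis1 at 1.15 among those higher and Pbx2 (-0.42) and Pbx4 (-0.56) those lower (log2).

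Noncoding genes of the clusters were described beside their neighbours. Of 9 tested, 1 rose and 1 fell under NRRA in STRA8KO, and 0 rose and 3 fell in the cultures labelled SPO11KO, beside 41.9% and 49.9% of all genes called in either direction. Hoxb3os, antisense to Hoxb3, rose by 0.43 (log2, SE 0.0667) and fell by 0.89 (log2, SE 0.0639), with an interaction of 1.32 (SE 0.0924, edgeR adjusted p 1.41e-16). Hoxb5os, antisense to Hoxb5 and Hoxb6, changed by 0.16 (log2, SE 0.190, no call) and fell by 0.82 (log2, SE 0.180), with an interaction of 0.98 (SE 0.262). The 5 noncoding genes of cluster A that were tested had no call for NRRA, and all 9 tested genes were higher in STRA8KO NRRA than in SPO11KO NRRA, as were 35.0% of all genes. The strand setting used in counting is not given in the sources used here, so reads of a Hox gene and of an antisense or overlapping gene may not have been told apart. This concerns Hoxb3, Hoxb5, Hoxb6, Hoxa3, Hoxc5, Hoxd3 and Hoxd4 among others.

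Genes beyond the cluster ends were counted in the same way. Of 9 flanking genes tested, 4 rose and none fell in STRA8KO under NRRA, 3 rose and none fell in the cultures labelled SPO11KO, and 2 had a called interaction, beside 41.9%, 49.9% and 25.1% of all genes called. Ttll6, next to Hoxb13, was one of those, with 9 and 11 counts (STRA8KO Veh), 36 and 26 (STRA8KO NRRA), 17 and 18 (SPO11KO Veh) and 8 and 18 counts (SPO11KO NRRA), and an interaction of 2.29 (log2, SE 0.627, edgeR adjusted p 0.00439). Skap1, which lies beyond Hoxb1 at the other end of cluster B, rose in both genotypes by 1.05 and 1.17 (log2). The caudal genes, which act upstream of Hox genes in the embryo, were near 0, and of them only Cdx1 was tested. Cdx1, a retinoic acid target itself, had 0 and 3 counts (STRA8KO Veh), 6 and 7 (STRA8KO NRRA), 0 and 0 (SPO11KO Veh) and 19 and 14 counts (SPO11KO NRRA). It was called higher in the cultures labelled SPO11KO (edgeR adjusted p 1.70e-05) and not in STRA8KO (edgeR adjusted p 0.0777), and its interaction had no call (edgeR adjusted p 0.102).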

How the data were processed

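Poly(A) mRNA libraries of SSC cultures (8 libraries, 4 groups of 2) were sequenced. The authors deposited 1 table of raw read counts per gene, neither normalized nor pooled. The submitters' processing notes name bcl2fastq, STAR 2.6.1c and featureCounts 1.6.4, with mm10. Strand and multi-mapping settings are not given in the sources used here. Every row named a gene. Replicate libraries differed by more than sampling noise and were counted separately. By the study's account each replicate came from other mice or cells and was a biological one, but the labels do not tie a library to an animal or culture. P-values measure the spread between these libraries.

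Differences were tested in edgeR 4.0.16 (R 4.3.3). After filterByExpr, 20588 genes with 99.88% of the counts remained. With TMM scaling, 1 model with a mean for each group was fitted to all 8 libraries, and contrasts were tested two-sided by quasi-likelihood F tests. P-values were adjusted over all tested genes (Benjamini-Hochberg), and calls needed an adjusted value under 0.05. The common biological coefficient of variation was 3.39%. SE is the log2 fold change divided by the root of F. DESeq2 1.42.0, the tool of the study's methods, served as an alternative. The tests were checked on simulated data. Fits relative to fibroblast markers used their summed counts as library size. Other alternatives were size factors, total counts, other filters and thresholds, the legacy quasi-likelihood method, fewer libraries and a replicate block. 

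Values are printed for the 10 Hox genes with the highest summed CPM and, in each comparison, for the 3 called genes highest and the 3 lowest. Hotair, Ttll6 and other genes outside the Hox set were named after their values were seen. Members and lists were chosen with earlier results of these data known. Exon lengths and coordinates came from GENCODE M21, which held 99.52% of the gene identifiers, and promoters from RefSeq (GRCm38.p6). A search of whole clusters for response elements was not run. Values of 1 listed gene are not reported here.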

Additional observations from a re-analysis of the deposited data

Results flagged for a closer look

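Between genotypes the effect of NRRA differed, by the interaction test (edgeR quasi-likelihood, adjusted p under 0.05), for 16 Hox genes, each with the higher value in STRA8KO than in cultures labelled SPO11KO. In cluster B the log2 interactions were 2.49 for Hoxb1, 1.91 for Hoxb2, 1.06 for Hoxb3, 1.21 for Hoxb4, 1.34 for Hoxb5, 1.22 for Hoxb6, 0.64 for Hoxb7, 1.10 for Hoxb8, 0.45 for Hoxb9 and 0.99 for Hoxb13. In cluster C they were 0.95 for Hoxc4, 0.58 for Hoxc9, 0.38 for Hoxc10, 1.35 for Hoxc11 and 1.03 for Hoxc13, and in cluster A 0.57 for Hoxa10. With 2 libraries in a group, no library could be tested for standing apart from its group.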

How the results depend on the processing

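With a fold change of at least 2 required, Hox genes called were 3 higher and 3 lower for NRRA in STRA8KO (all genes 2168), 0 and 8 for NRRA in the cultures labelled SPO11KO (2539), 8 and 5 between genotypes in Veh (3336), 18 and 0 in NRRA (3819), and 9 positive interactions (1175). DESeq2 called 3336 interactions over all genes. Relative to fibroblast markers, the median of ratios gave 4 Hox genes higher for NRRA in STRA8KO, 2 in the cultures labelled SPO11KO and 4 between genotypes in Veh; without collagen genes these were 21 (and 4 lower), 5 and 0. Leaving out each library, that Veh count was 0 to 1. Other counts under these omissions stayed within 1.5 times, with 13 to 18 Hox genes higher for NRRA in STRA8KO, 15 to 16 lower in the cultures labelled SPO11KO, 22 to 29 higher between genotypes in NRRA and 13 to 16 positive interactions. Total counts moved the median of all genes from 0.01 to 0.10 (log2) for NRRA in the cultures labelled SPO11KO, from 0.00 to -0.11 between genotypes in Veh and from 0.07 to -0.14 in NRRA.

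Relative to fibroblast markers, signs turned for called genes too. Hoxb2, Hoxb4 and Hoxb5, called higher for NRRA in STRA8KO, were called lower on that scale (log2 -0.29, -0.45 and -0.37). In other settings, of the 24 tested Hox genes printed for every library, signs turned only for those with no call in the fit reported. Between genotypes in NRRA, Hoxb9 was -0.0074 with size factors, -0.19 with total counts, -0.040 without a filter, -0.059 with 4 libraries alone and -0.014 with DESeq2, Hoxb6 was -0.046 with total counts, and Hoxb13 was -0.17 with total counts, -0.014 without a filter and -0.033 with 4 libraries alone. Leaving out each library gave ranges that crossed 0 there for Hoxb9 (-0.014 to 0.044), Hoxb13 (-0.00065 to 0.079) and Hoxc12 (-0.20 to 0.96). The same held for NRRA in STRA8KO for Hoxc10 (-0.22 to 0.086), Hoxd9 (-0.28 to 0.055), Hoxd10 (-0.11 to 0.55) and Hoxd11 (-0.096 to 0.72), and in the cultures labelled SPO11KO for Hoxd9 (-0.0014 to 0.19) and Hoxa3 (-0.18 to 0.44). Between genotypes in Veh it held for Hoxc12 (-0.12 to 0.027) and Hoxc13 (-0.36 to 0.023), and in the interaction for Hoxc6 (-0.089 to 0.073), Hoxc12 (-0.15 to 1.00), Hoxd3 (-1.04 to 0.49) and Hoxd10 (-0.75 to 0.076). Apart from the effect of the alternative's own construction, the cause was not tested.

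Replicate numbers did not pair the libraries (correlations of same-numbered deviations -0.0032, 0.10, -0.017 and -0.051). With the replicate number as a block the Hox calls were 18 higher and 6 lower, 5 and 15, 18 and 10, 28 and 2, and 16 and 0, and of the 24 Hox genes with values printed for every library none lost or gained a call. The count filter left Hoxa13, Hoxd1, Hoxd12 and Hoxd13 untested.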
